A study of Drosophila melanogaster with 4 samples.

Results

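The genes described here are the tetraspanins of Drosophila melanogaster in the larval central nervous system. Members were taken by symbol, as every gene named Tsp followed by a number and a cytological letter, together with lbm (late bloomer), which lies among them. This gave 35 of the genes in the annotation, 32 of which were listed in at least 1 of the 4 libraries, out of 13997 genes listed in all. The Tsp42 genes, 19 with lbm, were kept apart from the other 16. The gene whose symbol is sun encodes a subunit of ATP synthase and is no member. Tsp42Ej, which the annotation also calls sun after the name sunglasses, fits the symbol rule and was kept. Without it 34 members remain.

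RNA was sequenced from dissected nervous systems at 96 hours after egg laying, with 70 to 100 nervous systems pooled per sample. All samples carried the glial driver repo-Gal4, which directs Gal4-dependent transgenes to glia. In the 2 control samples it drove the red fluorescent protein mRFP (repo-Gal4>mRFP). In the 2 samples labelled reprogrammed it drove constitutively activated Egfr and constitutively activated PI3K92E. Effects of the 2 activated proteins, and of anything else in which the lines differ, cannot be told apart. No label gives separate crosses for the samples of a group, so p-values reflect only how far these pools differ, which may be technical.

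Tetraspanins are small multi-pass membrane proteins that bind other membrane proteins and gather them into patches. Their known partners include integrins, which attach cells to matrix, and the ADAM proteases that cut receptors such as Notch. They also travel through endosomes, and several are used as markers of extracellular vesicles. In the fly a long row of tetraspanin genes lies at band 42E on chromosome arm 2R. One of them, lbm, encodes a protein that sits on motor axons and helps them form synapses in the embryo.

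Levels are FPKM as the authors deposited them, read fragments scaled to transcript length and library size, and are thus per length when genes are set side by side. Genes that a table leaves out count as 0. Judged by the smallest steps between values, 1 read on a transcript of 1 kilobase was worth 0.0838 to 0.0920 FPKM. A gene was tested where 2 or more libraries reached 1 FPKM, which held for 9851 genes and 21 of the members. A change is the mean of the reprogrammed minus the mean of the control libraries of log2(FPKM + 1), a scale that compresses changes in low genes. Its standard error (SE) and Benjamini-Hochberg adjusted p are from limma, two-sided, over all tested genes, with 2 libraries per group, and 0.05 was the threshold. Over all tested genes the median change was −0.25. Where a call depended on scaling, the libraries were also brought to the same median FPKM (a common median) or to the same summed FPKM (a common sum).

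Within the row at 42E, Tsp42El and lbm, which are neighbours, rose. Tsp42El (NCBI gene 35622) measured 23.3 and 32.4 FPKM in the controls and 98.8 and 89.3 FPKM in the reprogrammed libraries. Both reprogrammed values lay well above both control values. The means were 27.9 ± 6.45 and 94.1 ± 6.75 FPKM (SD, n = 2), a ratio of 3.37, and the log2 change was 1.74 ± 0.29 (SE; limma adjusted p = 0.0340), or 1.98 above the median of all genes. In whole tissue, more cells of a type and more RNA per cell cannot be told apart. lbm (NCBI gene 35623) measured 6.96 and 8.85 FPKM in the controls and 26.2 and 20.6 FPKM in the reprogrammed libraries, again without overlap. Its log2 change was 1.45 ± 0.32 (limma adjusted p = 0.0445), or 1.70 above the median of all genes. Both calls were lost without reprogrammed replicate 1 (limma adjusted p = 0.235 for Tsp42El and 0.512 for lbm) and without reprogrammed replicate 2 (0.0962 and 0.249). In those fits the spread came from the control pair, whose log2 values over all tested genes differed with an SD of 0.88, wider than the 0.59 of the reprogrammed pair. Scaled to equal sums of FPKM, lbm also lost its call (limma adjusted p = 0.0706), and with no filter on low values both did (0.0843 for Tsp42El and 0.0887 for lbm).

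Tsp42Ee was by far the most abundant tetraspanin transcript in every library. Tsp42Ee (NCBI gene 35614) measured 451 and 571 FPKM in the controls and 1416 and 1146 FPKM in the reprogrammed libraries. The groups did not overlap, yet the log2 change of 1.32 ± 0.33 missed the threshold on all 4 libraries (limma adjusted p = 0.0559). It passed with a filter of 5 FPKM (0.0481), but not on a common median (0.0536) or a common sum (0.0849). With 1 library left out the change of Tsp42Ee ranged from 1.15 to 1.49. Among all genes listed in a library it ranked 242nd and 166th by FPKM in the controls and 81st and 107th in the reprogrammed libraries.

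Further genes around Tsp42Ee were higher in both reprogrammed libraries without passing the test. Tsp42Ea, the first gene of the row, read 34.3 and 39.2 FPKM in control and 87.3 and 68.4 FPKM in reprogrammed libraries (log2 change 1.06 ± 0.28, limma adjusted p = 0.0602). Tsp42Ef read 23.6 and 40.3 FPKM against 69.4 and 59.1 FPKM (1.03 ± 0.34, limma adjusted p = 0.0983). For both genes the reprogrammed values lay above the control values. On a common median both passed, with limma adjusted p of 0.0483 and 0.0471. On a common sum neither did (0.116 and 0.205). With 1 library left out the changes ranged from 0.88 to 1.23 for Tsp42Ea and from 0.65 to 1.40 for Tsp42Ef.

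The low genes Tsp42Ed and Tsp42Eg were uneven between the 2 controls. Tsp42Ed measured 0.71 and 4.31 FPKM in the controls and 7.47 and 7.31 FPKM in the reprogrammed libraries. Tsp42Eg measured 1.87 and 9.04 FPKM in the controls and 8.30 and 9.27 FPKM in the reprogrammed libraries. For Tsp42Eg control replicate 2 matched the reprogrammed libraries and control replicate 1 did not. Its log2 change was 0.86 ± 0.62 on all libraries (limma adjusted p = 0.378), −0.04 without control replicate 1 and 1.77 without control replicate 2. That of Tsp42Ed was 1.48 ± 0.57 (limma adjusted p = 0.136), 0.66 without control replicate 1 and 2.29 without control replicate 2.

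Other genes of the same row stood lower in the reprogrammed libraries or overlapped. Tsp42Ej (NCBI gene 35620), whose protein takes part in the lysosomal breakdown of rhodopsin in the adult eye, read 38.6 and 37.4 FPKM in control and 13.2 and 21.1 FPKM in reprogrammed libraries. These groups did not overlap, and the log2 change was −1.14 ± 0.33 (limma adjusted p = 0.0707). Tsp42Ej passed on a common sum (0.0471) but not on a common median (0.154). Its neighbour Tsp42Ek overlapped, at 3.86 and 5.70 FPKM in control and 2.15 and 5.27 FPKM in reprogrammed libraries (−0.36 ± 0.45). The annotation gives these neighbours 107 shared exon bases on the same strand, 9.59% of the exon bases of Tsp42Ej, so some reads could belong to either. Tsp42Ep and Tsp42Eo changed by −0.50 ± 0.55 and −0.31 ± 0.29, neither past the test. All 889 exon bases of Tsp42Eo lie within exons of Tsp42Ep on the other strand. Strand was not marked in any step the protocol gives, so reads of Tsp42Eo cannot be told apart from those of Tsp42Ep. Of the exon bases of Tsp42Ep, 30.7% are shared.

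Tsp42El and Tsp42Ej lie close together in the row, with Tsp42Ek between them, and their levels crossed. The ratio of Tsp42El to Tsp42Ej FPKM within a library was 0.605 and 0.868 in control and 7.46 and 4.24 in reprogrammed libraries. Such a ratio does not change when a library is multiplied by 1 factor, as on a common median or sum, and it is a description, since the pair was chosen after its values were seen.

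The remaining Tsp42 genes were too low to test or were not listed. Tsp42Eb, Tsp42Ec, Tsp42Eh, Tsp42Ei, Tsp42En, Tsp42Eq and Tsp42Er were listed at no more than 1.19 FPKM in any library and were not tested. Tsp42Eb appeared in only 2 libraries, at 0.93 FPKM in control replicate 1 and 1.19 FPKM in reprogrammed replicate 1. Those were also the libraries with the higher summed level of gut markers, 27.9 and 83.6 FPKM against 3.32 in control replicate 2 and 0.95 in reprogrammed replicate 2. Jon25Bi alone held 17.6 and 70.8 FPKM of these 2 higher sums. Within each group betaTry and alphaTry were also higher there. In controls mex1 (1.15 against 2.15 FPKM) and Amy-p (0.11 against 0.21 FPKM) were lower in replicate 1, and Jon65Ai was above 0 only in reprogrammed replicate 2. The part of gut tissue in the Tsp42Eb values was not tested. Tsp42Eh read 0.62 and 0.67 FPKM in control and 0.18 and 0.27 FPKM in reprogrammed libraries. Tsp42A, which shares the number but lies apart from the row of 18 genes, was not listed in any library.

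Genes of other families lie between and beside the Tsp42 genes. Of 15 such genes, counting 3 on each side, 7 were tested and none was called by limma, against 12.2% of all tested genes. At an unadjusted limma p under 0.05 there was 1, against 34.1% of all tested genes. With 7 genes these counts cannot show whether the neighbours differ from other genes. CG30159, CG43646 and CG43647, which lie between the tetraspanins at the Tsp42Ea end, changed by 0.25 ± 0.43, 0.23 ± 0.32 and 0.22 ± 0.33. At the same end lncRNA:CR44172, beside CG43647, and CG17002, just before Tsp42Ea, changed by −0.67 ± 0.52 and −0.37 ± 0.48. CG33914, between Tsp42Ei and Tsp42Ej, shares 182 exon bases with Tsp42Ei on the other strand, 14.0% of that gene. It measured 4.74 and 4.54 FPKM in the controls and 0.97 and 1.70 FPKM in the reprogrammed libraries (−1.29 ± 0.33, limma adjusted p = 0.0578). Pgant3, which encodes an enzyme that starts sugar chains on secreted proteins, changed by −0.40 ± 0.30.

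**Figure D1:**
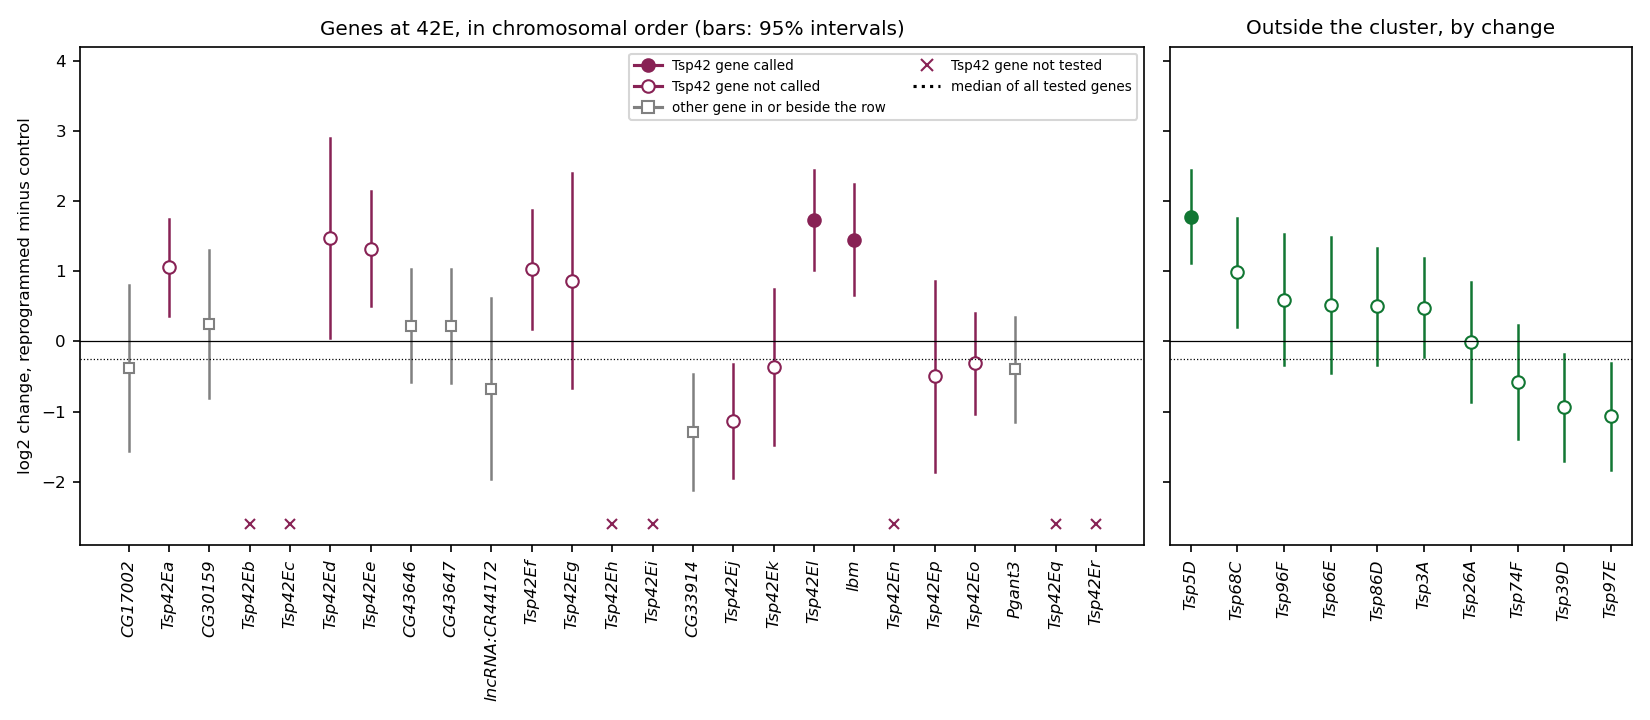
Log2 change (reprogrammed minus control, log2(FPKM + 1) scale) with 95% limma intervals for the genes at 42E in chromosomal order (left) and for the 10 tested tetraspanin genes elsewhere (right). Filled points are called, open squares are genes of other families, crosses mark untested members, and the dotted line is the median of all tested genes at −0.25. Tsp42El, lbm and Tsp5D are the filled points, between 1.45 and 1.78.

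Outside the Tsp42 cluster, Tsp5D rose, with close replicates in both groups. Tsp5D (NCBI gene 31540), on the X chromosome, measured 13.7 and 13.5 FPKM in the controls and 48.5 and 49.8 FPKM in the reprogrammed libraries. The means were 13.6 ± 0.18 and 49.2 ± 0.93 FPKM (SD, n = 2), a ratio of 3.61. Its log2 change was 1.78 ± 0.27 (limma adjusted p = 0.0324), or 2.03 above the median of all genes, which ranked 323rd among all tested genes. The call was lost without reprogrammed replicate 1 (limma adjusted p = 0.238) or 2 (0.15) and with no filter (0.0843). Exons of Tsp5D share 134 bases, 6.36% of its exon bases, with CG5928 on the other strand.

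Tsp68C moved the same way at a lower level. It read 3.35 and 3.11 FPKM in control and 7.03 and 7.71 FPKM in reprogrammed libraries, without overlap. The log2 change of 0.98 ± 0.31 did not pass on all libraries (limma adjusted p = 0.0891). It did on a common median (0.0494) but not on a common sum (0.179). With 1 library left out it ranged from 0.93 to 1.04.

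Of the 10 tested genes elsewhere, 3 stood lower in both reprogrammed libraries, as did 40.8% of all tested genes, and none of the 3 passed the test. Tsp97E (NCBI gene 43241), the second most abundant tetraspanin transcript in controls, read 174 and 113 FPKM there and 67.0 and 66.0 FPKM in reprogrammed libraries. Its log2 change was −1.07 ± 0.31 (limma adjusted p = 0.0720), past the threshold on a common sum (0.0374) but not on a common median (0.272). With 1 library left out the change ranged from −1.38 to −0.76. Tsp39D read 32.8 and 24.9 FPKM in control and 15.97 and 13.1 FPKM in reprogrammed libraries (−0.94 ± 0.31, limma adjusted p = 0.0949). Its change ranged from −1.13 to −0.74 with 1 library left out. Tsp74F was low throughout, at 2.87 and 2.42 FPKM against 1.10 and 1.84 FPKM (−0.58 ± 0.33, limma adjusted p = 0.275). The ratio of Tsp5D to Tsp97E FPKM within a library, a pair also chosen after its values were seen, was 0.0788 and 0.119 in control and 0.724 and 0.755 in reprogrammed libraries.

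Tsp3A, Tsp26A and Tsp86D belong to the TspanC8 group, which binds the ADAM protease Kuzbanian and promotes Notch signalling. None of them was called. Tsp3A read 14.6 and 16.5 FPKM in control and 22.4 and 21.7 FPKM in reprogrammed libraries, without overlap (log2 change 0.48 ± 0.28, 95% interval −0.22 to 1.18). Tsp86D read 64.9 and 38.1 FPKM against 73.5 and 68.5 FPKM (0.50 ± 0.34, interval −0.33 to 1.34). Its change was 0.88 without control replicate 1 and 0.13 without control replicate 2. Tsp26A overlapped completely, at 36.5 and 21.8 FPKM in control and 30.5 and 25.7 FPKM in reprogrammed libraries, and its change of −0.01 had an interval of −0.87 to 0.84 and took either sign under the alternatives. The intervals reach 1.18 and 1.34 for Tsp3A and Tsp86D, so these data do not show that the group was stable.

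The abundant genes Tsp96F and Tsp66E differed chiefly in 1 reprogrammed library. Tsp96F read 76.5 and 48.3 FPKM in control and 118 and 72.0 FPKM in reprogrammed libraries (log2 change 0.59 ± 0.38, limma adjusted p = 0.324). Tsp66E read 50.4 and 58.8 FPKM in control and 112 and 55.1 FPKM in reprogrammed libraries (0.52 ± 0.39, limma adjusted p = 0.403). In both genes reprogrammed replicate 2 lay within the control range. Without reprogrammed replicate 1 the change of Tsp66E was 0.02.

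Tsp2A, Tsp29Fa, Tsp29Fb and Tsp47F were listed but too low to test, and Tsp33B and Tsp66A were not listed in any library. Tsp2A, which builds the smooth septate junctions of the gut, read 0.10 and 0.93 FPKM in control and 0.31 and 0.20 FPKM in reprogrammed libraries. Tsp29Fb read 0.56 and 2.26 FPKM in control and 0.41 FPKM in reprogrammed replicate 1, and was missing from the table of reprogrammed replicate 2. Tsp47F lay at 0.88 and 1.67 FPKM against 0.61 and 0.45 FPKM. TM4SF, which the annotation also calls Tsp60A but which the symbol rule leaves out, measured 21.7 and 65.3 FPKM in the controls and 10.8 and 14.5 FPKM in the reprogrammed libraries (−1.52 ± 0.54, limma adjusted p = 0.114).

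**Figure D2:**
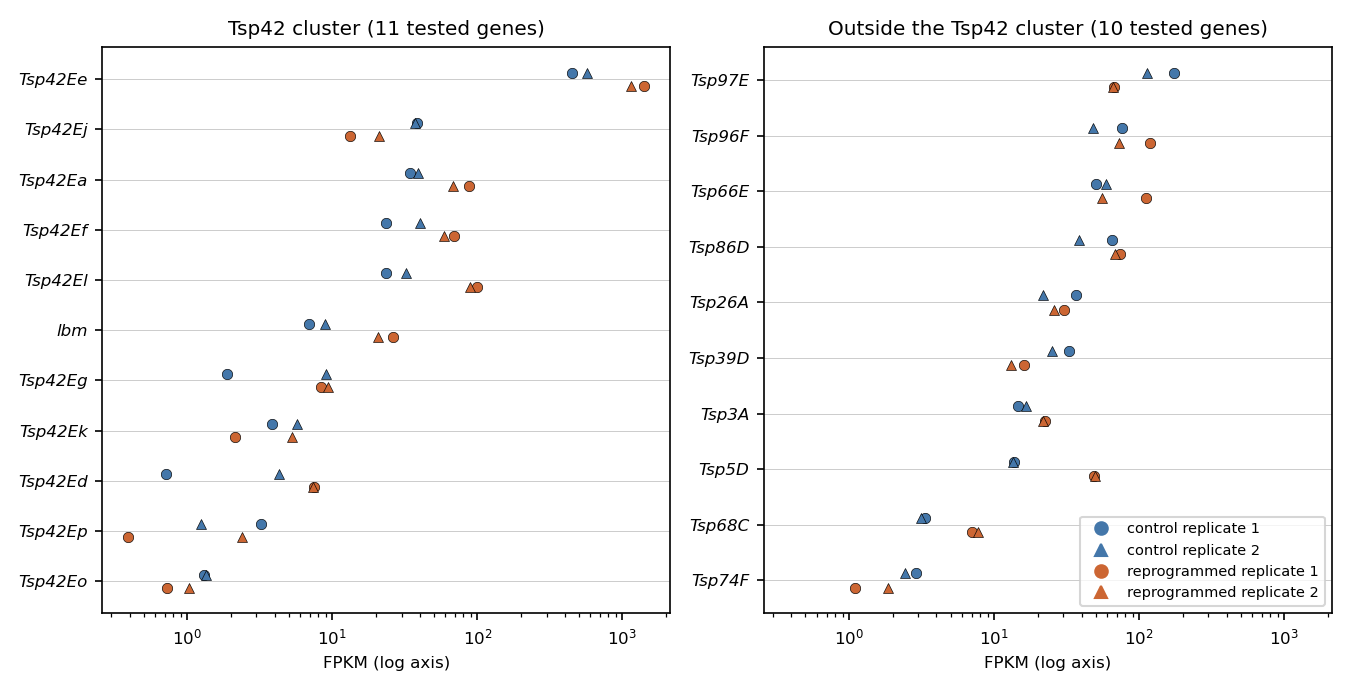
FPKM of each tested tetraspanin gene in the 4 libraries on a log axis, ordered by the control mean, for the Tsp42 cluster (left) and the genes elsewhere (right). Circles are replicate 1 and triangles replicate 2, blue for control and orange for reprogrammed. Tsp5D shows close pairs in both groups, near 13.6 and 49.2 FPKM, and Tsp42Ee lies above every other gene.

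Summed over the family, tetraspanin transcripts made up a larger part of all FPKM in the reprogrammed libraries, and Tsp42Ee held most of that. The 35 genes summed to 1064 and 1101 FPKM in control and to 2231 and 1814 FPKM in reprogrammed libraries. This was 0.137% and 0.157% of the summed FPKM of all genes in control and 0.249% and 0.204% in reprogrammed libraries. The Tsp42 genes other than Tsp42Ee summed to 141 and 183 FPKM against 317 and 286 FPKM, without overlap. The genes outside the cluster summed to 472 and 346 FPKM against 498 and 382 FPKM, and these groups overlapped. Tsp42Ee alone held 42.4% and 51.9% of the family's sum in control and 63.5% and 63.2% in reprogrammed libraries. No test was run on these sums.

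**Figure D3:**
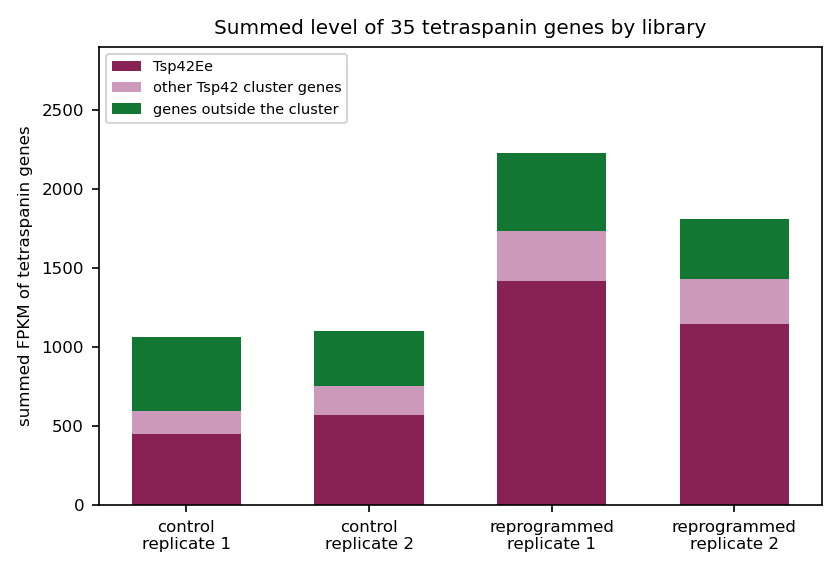
Summed FPKM of the 35 tetraspanin genes in each library, split into Tsp42Ee, the other Tsp42 cluster genes and the genes outside the cluster. The total is 1064 and 1101 FPKM in the controls and 2231 and 1814 FPKM in the reprogrammed libraries, and the Tsp42Ee segment is the largest in each reprogrammed library.

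The order of levels within a group was only partly resolved. In controls Tsp42Ee (mean 511 FPKM) and Tsp97E (144 FPKM) each lay clear of the next gene in both libraries. The 9 genes that followed, from Tsp96F (62.4 FPKM) through Tsp66E, Tsp86D, Tsp42Ej, Tsp42Ea, Tsp42Ef, Tsp26A and Tsp39D to Tsp42El (27.9 FPKM), overlapped their neighbours in that order. In reprogrammed libraries Tsp42Ee (1281 FPKM) was again clear of the rest. Tsp96F, Tsp42El, Tsp66E, Tsp42Ea and Tsp86D, with means from 95.2 down to 71.0 FPKM, overlapped one another in order, and Tsp97E had moved to the 7th place at 66.5 FPKM. Tsp42El had moved from the 11th place to the 3rd.

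Counted together, 3 of the 21 tested tetraspanin genes were called higher, 2 of 11 in the Tsp42 cluster and 1 of 10 outside it, and 0 were called lower by limma. Over all tested genes 4.11% were called higher, 8.13% lower and 12.2% in either direction. The 14.3% of tested members called is near the share of all genes called in either direction. Whether their direction differs from that of other genes was not tested. At an unadjusted p under 0.05, 8 members were higher and 3 lower, against 10.7% and 23.4% of all tested genes. The reprogrammed values lay above the control values without overlap in 10 members, where 22.6% of all tested genes did so, and below in 5 members, where 40.8% of all tested genes did so. In either direction that is 15 members, against 63.4% of all tested genes. The median change was 1.03 over the tested Tsp42 genes and 0.49 over the tested genes elsewhere, against −0.25 over all tested genes. The Tsp42 median was 0.65 without control replicate 1, against −0.45 over all tested genes. With no filter, where 18 Tsp42 genes entered, it was 0.058, and 0.11 elsewhere, against −0.12 over all genes. The median elsewhere was 0.20 without control replicate 2, against −0.08 over all tested genes. Without reprogrammed replicate 1 it was 0.13, against −0.22. Without Tsp42Ej the Tsp42 median was 1.04 over 10 genes. The tested members passed the filter on low values, so these medians do not stand for all 35.

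How the libraries are put on 1 scale moved the counts. Dividing by the libraries' medians (common median) put the median of all tested genes at 0.06, dividing by their sums of FPKM (common sum) at −0.49, and quantile normalization at −0.04. Removing the trend on transcript length put it at −0.05. All tested genes split into 405 higher and 801 lower calls as deposited, 586 and 439 on a common median, 310 and 1225 on a common sum, 369 and 249 by quantile normalization, and 445 and 295 once the length trend was taken out. Among the tetraspanins, a common median gave 4 Tsp42 genes higher and 2 elsewhere, with 0 lower by limma. A common sum gave 1 higher and 1 lower in the Tsp42 cluster, and the same elsewhere. In all 4 of these scalings Tsp5D and Tsp42El stayed called, and the changes of Tsp26A, Tsp42Ek and Tsp42Eo changed sign in at least 1. The tested Tsp42 genes had a median transcript length of 1188 bases, against 1959 for all tested genes, and the change over all genes fell from a median of 0.20 in the eighth with the shortest transcripts to −0.96 in the eighth with the longest. With that trend removed the Tsp42 median was 0.96 and that of the genes elsewhere 0.55.

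**Figure D4:**
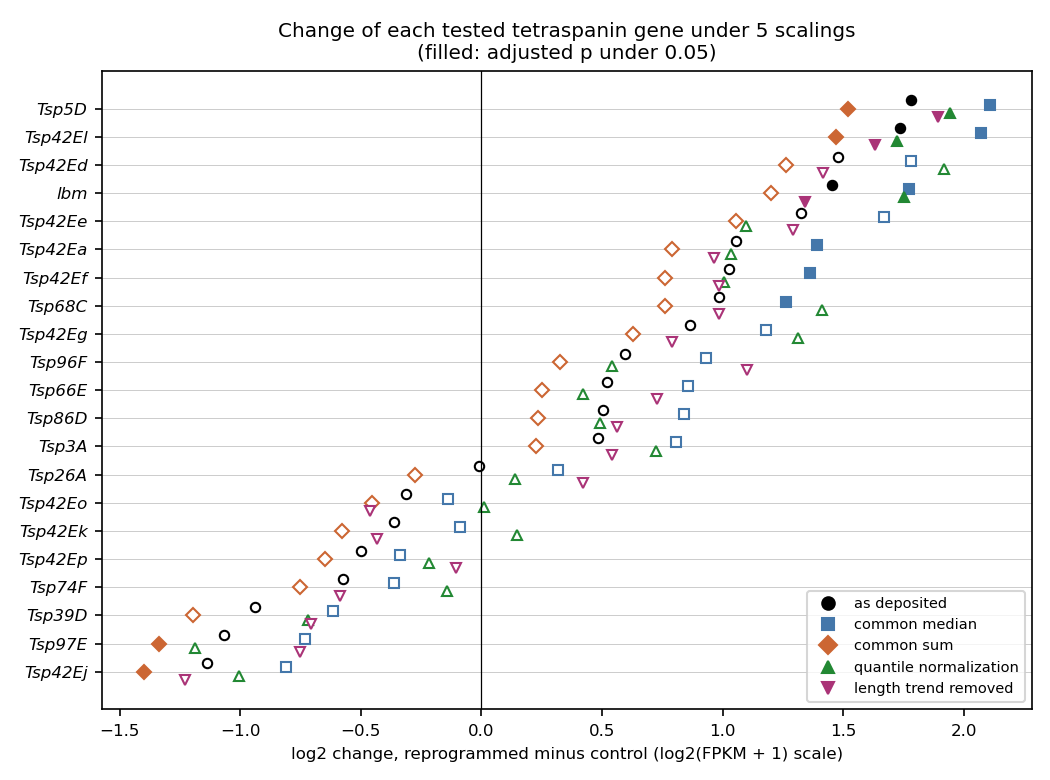
Log2 change of each of the 21 tested tetraspanin genes as deposited and under 4 other scalings, ordered by the change as deposited. Filled symbols have a limma adjusted p under 0.05. Tsp5D and Tsp42El are filled in all 5 and lbm in all but the common sum, and the symbols of Tsp26A lie on both sides of 0.

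Genes of processes in which tetraspanins take part, not only their known partners, were read from 4 short lists. Among 17 tested genes of Notch cleavage and signalling, 3 fell and 0 rose by limma, with 7 lower and 0 higher at an unadjusted p under 0.05. Over all tested genes 8.13% were called lower and 4.11% higher, and 23.4% were lower and 10.7% higher at an unadjusted p under 0.05. Delta, the main Notch ligand, was not matched and is not in the count of the list. The list median was −0.94, against −0.25 over all tested genes, and −0.61 on a common median or by quantile normalization and −0.31 with no length trend. The list median was −0.86 without control replicate 1 and −0.98 without control replicate 2. On a common sum 5 genes of the list were called lower, as were 1225 of all 9851 tested genes. Kuzbanian, the protease that the TspanC8 group binds, is encoded by kuz, which stood at 43.5 and 27.1 FPKM in control and 26.3 and 22.5 FPKM in reprogrammed libraries (log2 change −0.48 ± 0.33, limma adjusted p = 0.360). The related protease genes Kul (−1.91 ± 0.35, limma adjusted p = 0.0369) and Tace (−1.59 ± 0.34, 0.0415) and the Notch coactivator gene mam (−1.43 ± 0.28, 0.0388) fell. These 3 calls were lost on a common median (adjusted p 0.0547, 0.0730 and 0.0710), by quantile normalization (0.0679, 0.0634 and 0.0627), with no length trend (0.105, 0.0727 and 0.272), with no filter (0.0843, 0.0880 and 0.0843), and when reprogrammed replicate 1 (0.302, 0.439 and 0.367) or 2 (0.112, 0.106 and 0.282) was left out. The most abundant uncalled genes were pen-2 and aph-1, subunits of the gamma-secretase that cuts Notch within the membrane, with changes of 0.13 ± 0.49 and 0.40 ± 0.29, and Psn, its catalytic subunit, at 0.36 ± 0.26.

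Among 17 tested integrin and adhesion genes, 3 rose and 0 fell by limma, with 5 higher and 1 lower at an unadjusted p under 0.05. Over all tested genes 4.11% were called higher and 8.13% lower, and 10.7% were higher and 23.4% lower at an unadjusted p under 0.05. The 3 called genes encode one known complex, which links integrins to actin. Ilk stood at 49.1 and 47.0 FPKM in control and 119 and 119 FPKM in reprogrammed libraries (1.29 ± 0.25, limma adjusted p = 0.0385). Its partner genes parvin, at 39.4 and 41.98 against 101 and 103 FPKM (1.31 ± 0.25, 0.0385), and stck, at 44.1 and 46.8 against 104 and 97.9 FPKM (1.14 ± 0.25, 0.0451), moved by a like amount. All 3 calls were lost by quantile normalization (adjusted p 0.0565 for Ilk, 0.0527 for parvin and 0.0635 for stck), with no filter (0.0843 for each) and when reprogrammed replicate 1 (0.388, 0.381 and 0.489) or 2 (0.262, 0.267 and 0.323) was left out, and stck and parvin also lost theirs on a common sum (0.0743 and 0.0510). With the length trend removed Ilk (0.0549) and stck (0.0651) lost theirs. The integrin beta gene mys, at 33.6 and 51.3 against 35.1 and 36.3 FPKM, was not called (−0.22 ± 0.31), nor were Pax (0.70 ± 0.50) and LanB1 (−0.05 ± 0.37). The list median was −0.05, and −0.45 without control replicate 1, 0.48 without control replicate 2, 0.69 with a filter of 5 FPKM and 0.73 with no length trend, so its sign was not settled. More of all tested genes were called without control replicate 2, so no count of the list is given for that setting.

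Among 19 tested genes of extracellular vesicles and multivesicular endosomes, 0 were called in either direction by limma, against 12.2% of all tested genes. At an unadjusted p under 0.05, 2 were higher and 0 lower, against 10.7% and 23.4% of all tested genes. The list median was 0.04. The lysosomal membrane gene Lamp1 was the most abundant, at 731 and 547 FPKM in control and 1709 and 1300 FPKM in reprogrammed libraries, without overlap (1.24 ± 0.36, limma adjusted p = 0.0721). Rab11 and Arl8, which encode small GTPases of recycling endosomes and of lysosomes, changed by 0.50 ± 0.34 and 0.94 ± 0.34. The median of this list was −0.38 without control replicate 1 and 0.31 without control replicate 2. Of the 4 genes of smooth septate junctions, only Ssk was tested (0.05 ± 0.56), and mesh stood at no more than 0.35 FPKM in any library, as did Tsp2A at no more than 0.93 FPKM.

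The tetraspanin values stand beside shifts in cell type markers. The summed level of 12 glial markers was 1119 and 1331 FPKM in control and 3859 and 3607 FPKM in reprogrammed libraries, and 6 of the 12 rose and 0 fell by limma, with 10 higher and 1 lower at an unadjusted p under 0.05. That of 10 neuronal markers was 1003 and 825 FPKM against 191 and 274 FPKM, and 9 of the 10 fell. Over all tested genes 4.11% were called higher and 8.13% lower, and 10.7% were higher and 23.4% lower at an unadjusted p under 0.05. Without either reprogrammed library 2 glial markers were called higher, and 2 (without replicate 1) or 5 (without replicate 2) neuronal markers lower. With the length trend removed 2 neuronal markers were lower. Imaginal disc and tracheal markers moved with the groups. All 7 disc markers lay lower in the reprogrammed libraries without overlap, as did 40.8% of all tested genes. All 7 were also lower at an unadjusted p under 0.05, as were 23.4% of all tested genes, and ImpE2 was called (−4.28 ± 0.46, limma adjusted p = 0.0297). Of 5 tracheal markers 4 were lower in both ways, and trh was called (−1.68 ± 0.32, limma adjusted p = 0.0384). The other, btl, went the other way, at 1.16 and 1.44 FPKM in control and 1.56 and 1.59 FPKM in reprogrammed libraries (0.17 ± 0.29). It lay above without overlap, as did 22.6% of all tested genes. Of the hemocyte markers srp and ush were called lower, as was Fbp1 of the fat body. Sums for fat body, muscle and hemocytes also varied within groups. The sum of 7 fat body markers was 230 and 1393 FPKM in control and 66.9 and 511 FPKM in reprogrammed libraries, and that of 8 muscle markers 90.1 and 462 FPKM against 44.0 and 134 FPKM. Hemocyte markers, 12 in all, summed to 803 and 438 FPKM against 413 and 617 FPKM, 5 tracheal markers to 83.4 and 213 FPKM against 33.9 and 40.7 FPKM, and 7 imaginal disc markers to 267 and 502 FPKM against 32.7 and 28.4 FPKM. ImpE2 alone held 207 and 460 FPKM of the disc sums in control and 18.8 and 11.9 FPKM in reprogrammed libraries. Of all these markers, Npc1b of the gut was at 0 in every library. Their part in the tetraspanin changes was not tested.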

How the data were processed

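Per the labels' protocols, libraries were made from oligo(dT)-selected RNA that was fragmented and primed at random. FPKM is the unit of the deposited tables, 1 per sample with 2 decimals, per the file headers. The submitters' processing notes name HISAT and Bowtie2 without versions. Sources used here do not give the quantifier or the build, and coordinates are not printed. FPKM moves with the mapped total and with transcript length. Gene numbers were named with the RefSeq table of Release 6 plus ISO1 MT, which matched 13960 of 13997 genes. Gene order is from that table, and transcript lengths (for 9839 of 9851 tested genes) and exon overlaps are from Ensembl BDGP6. Depth was estimated from low values of single-transcript genes, as the number of reads per FPKM that brought most of them to whole reads. At that number 89.4% to 90.3% came out as whole reads within 0.15 reads. The choice maximized this share, so the share is no separate check of the depth. FPKM values are not counts, so no count test was run.

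The filter kept genes that reached 1 FPKM in 2 or more of 4 libraries. limma (lmFit, eBayes with trend) was run on log2(FPKM + 1) with group as its term, and p-values were Benjamini-Hochberg adjusted over 9851 genes. Residual degrees of freedom were 2 and prior ones 3.72. The script was tested on simulated data with the same spread for every gene and both groups, which these data do not have. That test bears on the code and not on the calls. All members are named. Of the short lists of process genes, called genes, the most abundant uncalled genes and kuz, mys, mesh and Ssk are named. In all, 2 list names, Dl (Delta) and ebony, were not matched to the annotation. The members and lists were chosen with earlier results of these data known. The alternatives were other scalings (common median, common sum, quantile), no filter, 5 FPKM, a pseudocount of 0.1, a replicate block, a loess length trend (span 0.5) removed, and each library left out. The software was limma 3.58.1 in R 4.3.3, with numpy 2.4.6, pandas 2.3.3 and matplotlib 3.10.9 in Python 3.11.15.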

Additional observations from a re-analysis of the deposited data

How the results depend on the processing

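The change of each tested tetraspanin gene was refitted under 12 alternatives, 249 values in all. Of these 204 kept their direction and their side of the threshold, 10 lost a call, 25 gained one and 10 changed sign, none of the last in the 3 called genes. Tsp26A changed sign by quantile normalization (0.14), on a common median (0.32) and with no length trend (0.42), and ranged from −0.37 to 0.35 with 1 library left out. By quantile normalization Tsp42Ek (0.15) and Tsp42Eo (0.012) did so. With 1 library left out Tsp42Ek ranged from −0.86 to 0.14, Tsp42Ep from −1.14 to 0.14 and Tsp42Eg from −0.039 to 1.77. The cause was not tested.

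Tsp42 genes called higher numbered 6 with the replicate block, 4 on a common median, 0 with no filter and 1 on a common sum, and from 0 to 7 with 1 library left out. Genes elsewhere called higher numbered 2 on a common median and 0 with no filter, and from 0 to 3 with 1 library left out. Lower calls numbered 1 in the Tsp42 cluster and 1 elsewhere on a common sum and with the replicate block, and from 0 to 0 in the Tsp42 cluster and from 0 to 2 elsewhere with 1 library left out. Over all genes limma called 740 with no length trend, 618 by quantile normalization, 2779 with the replicate block, 0 with no filter (3629 at an unadjusted p under 0.05), and from 256 to 4578 with 1 library left out. A group left with 1 library takes its spread from the other group, which is an assumption. The difference of replicate 1 minus 2 correlated at −0.03 between the groups across tested genes, which cannot show whether samples were handled in pairs. Sums of gut, fat body, muscle and tracheal markers differed between the replicates in the same direction in both groups. Those of glial, neuronal, hemocyte and imaginal disc markers differed in opposite directions. Low genes, near 0.09 FPKM per read over 1 kilobase, are limited by depth.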
